A study of Mus musculus with 16 samples.

Results

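The comparison asked how 15 weeks on a high fat-high sugar diet (HFHS) differed from a standard diet (SD) in the skeletal muscle transcriptome of wild-type mice. It used the 8 arrays titled as wild type (WT), 4 on SD and 4 on HFHS, out of 16 in the study, with 1 array per sample and 4 biological replicates per group per the series design. All mice were male and 21 to 23 weeks old. The SD held 16.7% of its energy as fat and 12.4% as sugar, and the HFHS held 49.2% and 32.2%. The WT mice were Skm-CB1R+/+ littermates of the other 8 animals (CB1KO, Skm-CB1R-/-), in which Cre under the ACTA1 promoter, active in muscle fibres, deletes a loxP-flanked Cnr1 gene. Strain and the muscle dissected are not given in the labels.

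Several label entries limit these groups. The growth protocol writes Cre-positive, floxed genotypes for the controls as well as for the knockouts. The diet tag of the WT_HFHS arrays reads standard diet, against their titles, source names and descriptions, and the titles were followed. The treatment protocol also mentions an assignment to vehicle or S961, an insulin receptor antagonist, without saying which these mice received. Each diet lay on its own slide, and effects of the slide and of the diet cannot be told apart in any result given here.

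Skeletal muscle takes up most of the glucose cleared under insulin and is a large consumer of fatty acids. Its slow-twitch fibres contain many mitochondria and oxidise fat, whereas fast-twitch fibres depend more on glycogen and glycolysis. Long feeding of fat and sugar is a standard way to induce obesity and insulin resistance in mice, and in muscle it is commonly studied for fatty acid oxidation, lipid storage, fibre type, inflammation and capillary supply.

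Levels are log2 processed intensities minus the array's 75th percentile, so a level of 0 is the 75th percentile of that array. Differences are HFHS minus SD on this log2 scale, with the standard error (SE) of the limma model, and group means carry their SD over 4 arrays. WT_SD arrays had 60.6% to 66.6% of non-control spots well above background. On WT_HFHS the share was 75%, 74.9%, 74.1% and 62.4% in replicates 1 to 4, so replicate 4 stood apart. Levels over all genes correlated at 0.963 to 0.984 within WT_SD, 0.982 to 0.993 within WT_HFHS and 0.968 to 0.989 between the groups. All 12 skeletal muscle markers, among them Acta1, Ckm and Myh4, stood well above background on all 8 arrays.

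No gene passed an adjusted p of 0.05 between HFHS and SD in WT muscle (limma, Benjamini-Hochberg over 28972 genes, 0.0% called). The smallest adjusted p was 0.0715, for Zfp709, and the next was 0.309. Before adjustment, 1756 genes (6.06% of those tested) had a p under 0.05, 610 of them higher and 1146 lower in HFHS. That split depended on the scaling, with 34.7% of these genes higher as analysed, 46.3% after quantile normalization, 45.3% after normexp with quantile normalization and 45.9% on the deposited z-scores. The median difference over all genes was -0.06 and the median SE was 0.24, and 468 genes (1.62%) differed by more than 1 on the log2 scale. A weighting of arrays by quality gave 687 higher and 931 lower genes at an adjusted p under 0.05 (5.58%). Its weights were 4.4 for WT_SD replicate 3 and 4.86 for WT_HFHS replicate 2 and 0.553 to 1.7 for the other WT arrays, so those calls rest mainly on 1 array of each group.

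In 590 genes (2.04%) all 4 HFHS arrays lay above all 4 SD arrays, and in 973 (3.36%) all lay below. Probes that took no gene symbol made up much of the second set, and what they detect was not examined. Among the 11635 without a symbol 1.23% lay wholly higher and 4.42% wholly lower, with a median difference of -0.17, against 2.58% and 2.65% of the 17337 with a symbol. Detection moved with diet as well: 102 genes were well above background on all 4 HFHS arrays and on no SD array, and 2 genes the reverse. Its part in the results was not tested.

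The genes closest to a call at the upper end belonged to different classes. Zfp709, a zinc-finger gene, measured -6.02, -5.64, -6.33 and -5.46 on the SD arrays and -3.54, -3.64, -3.82 and -3.95 on HFHS. The groups lay well apart, but no SD array was well above background, so HFHS was at least 1.24-fold higher (adjusted p = 0.0715). Without CB1KO_SD replicate 2, an array that enters only through the shared variance, Zfp709 had an adjusted p of 0.0115. Over its 29 alternatives the adjusted p ran from 6.86e-05, with array weights, to 0.794.

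Ubd, which encodes the ubiquitin-like modifier FAT10, had the largest difference among the 10 higher genes named by p-value. Its levels were -3.44, -1.99, -4.70 and -5.56 on SD and 0.59, -1.12, -0.92 and -0.02 on HFHS. Every HFHS array exceeded every SD array, by a fitted difference of 3.55 ± 0.74 (adjusted p = 0.391), but only 2 of 4 SD arrays had it well above background. With the other 2 raised to the lowest intensity well above background on their arrays the difference was 2.90. In the arrays labelled CB1KO the fitted difference was 4.55 ± 0.74 (adjusted p = 0.0694), with 1 of 4 SD arrays well above background, and 3.63 after the same replacement.

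Tnfaip2, a gene induced by tumour necrosis factor, measured 1.37, 1.53, 1.34 and 1.93 on SD and 2.58, 2.47, 2.39 and 2.68 on HFHS. These groups did not overlap, and the difference was 0.99 ± 0.19 (1.99-fold, adjusted p = 0.391). Heyl, a Notch target of vascular smooth muscle, lay at -0.51 to -0.22 on SD and 0.19 to 0.74 on HFHS, a difference of 0.82 ± 0.18 (adjusted p = 0.425). Vtn, which encodes the adhesion protein vitronectin, differed by 0.69 ± 0.16 and Tbc1d16, a Rab GTPase-activating protein, by 0.59 ± 0.14 (adjusted p = 0.480 for each). Pde8b, a cAMP phosphodiesterase, differed by 0.81 ± 0.17 and Foxo6, a forkhead factor, by 0.83 ± 0.19, although a second Foxo6 probe measured -0.28. Anapc10, a subunit of the anaphase-promoting complex, and Spopfm2 were not well above background on any SD array and have only bounds of 1.04-fold and 1.18-fold.

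At the lower end, Tmem100, a membrane protein of endothelium and sensory neurons, measured 2.10, 2.53, 2.26 and 1.93 on SD and 0.31, 1.14, 0.14 and 0.69 on HFHS. The groups did not overlap, with a difference of -1.64 ± 0.29 (3.11-fold lower, adjusted p = 0.309). Panx1, which forms the ATP-releasing pannexin channel, measured 2.97, 3.41, 3.42 and 2.63 on SD and 1.64, 2.06, 2.31 and 1.99 on HFHS. Its difference was -1.11 ± 0.26 in WT (adjusted p = 0.480) and 0.00 ± 0.26 in CB1KO, and the interaction between genotype and diet was 1.11 ± 0.37 (adjusted p = 1.0). Cacna2d4, a calcium channel subunit, differed by -1.56 ± 0.37. Krt82 (a hair keratin), Gprc5d (an orphan receptor), Cldn14 (a tight junction claudin), Fam124b and 1700088E04Rik differed by -0.80 to -0.55. The adjusted p of these genes ran from 0.391 to 0.480, and a second Gprc5d probe measured -0.19 ± 0.28. Vmn1r48, a vomeronasal receptor, and Nkx6-2, a homeobox factor, lay low on all arrays, at SD means of -3.24 and -3.81, and differed by -1.05 ± 0.19 and -1.15 ± 0.24. Nkx6-2 was well above background on 3 SD arrays and 1 HFHS array only.

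**Figure D1:**
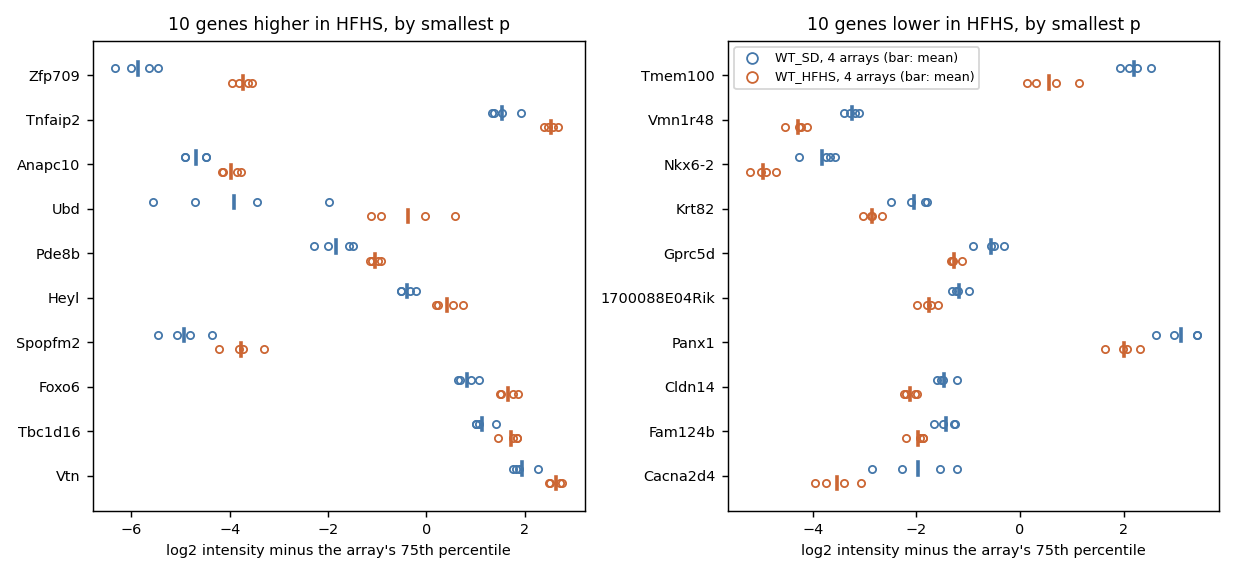
Levels of the 10 higher and 10 lower named genes with the smallest p on each of the 8 WT arrays (x axis: log2 intensity minus the array's 75th percentile; circles: arrays; bars: group means). In each of these genes the 4 HFHS arrays lie on one side of the 4 SD arrays, and none passed an adjusted p of 0.05.

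Cnr1, the cannabinoid receptor gene that the labels give as knocked out in the other genotype, lay close in level under both labels: its mean was -2.73 ± 0.72 (SD, n = 4) in WT_SD and -2.97 ± 0.69 in CB1KO_SD, and -2.30 ± 0.64 in WT_HFHS and -2.44 ± 0.68 in CB1KO_HFHS. The probe was well above background on 3 CB1KO_SD and 4 CB1KO_HFHS arrays. Whether it lies in the deleted part of the gene is not known here, so it does not check the genotype labels. Between the diets in WT it measured -2.03, -2.28, -2.98 and -3.64 on SD and -1.93, -2.34, -3.18 and -1.75 on HFHS, with overlapping groups (difference 0.43 ± 0.46, exact permutation test p = 0.371, two-sided, smallest possible 0.0286). Il6, the cytokine named in the series title, measured -3.30, -2.70, -3.39 and -3.87 on SD and -3.36, -3.41, -3.91 and -2.75 on HFHS, a difference of -0.05 ± 0.61 (exact permutation p = 0.714) that turned to 0.26 after quantile normalization. Mstn, the growth inhibitor myostatin, measured 3.51, 3.16, 2.81 and 2.86 on SD and 2.97, 2.92, 1.46 and 3.24 on HFHS. WT_HFHS replicate 3 was lowest, the groups overlapped and the difference was -0.44 ± 0.43 (exact permutation p = 0.457).

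Pathways were described with 40 gene lists. Of their 868 distinct members tested, none passed an adjusted p of 0.05 (smallest 0.498, for Ltb), and 28 lay wholly higher and 28 wholly lower, 3.23% each. These shares stand beside 2.04% and 3.36% of all genes. Among genes with a symbol, as all list members are, the shares were 2.58% and 2.65%, and the median difference was -0.0. Shares and medians of all genes given below include the genes without a symbol. Genes named below as wholly higher or lower are to be read beside these shares.

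**Figure D2:**
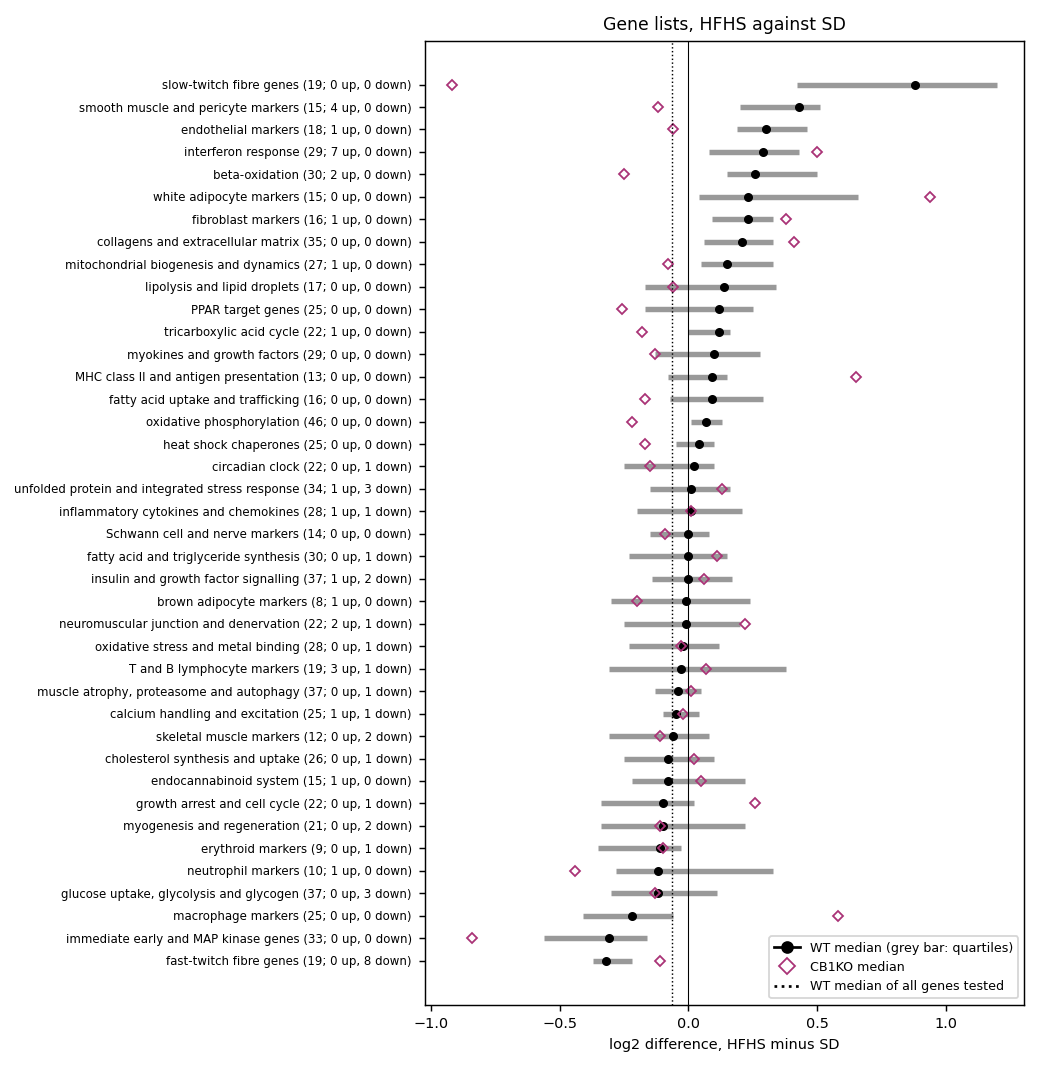
Median log2 difference between HFHS and SD for each gene list (black dots: WT median; grey bars: WT quartiles; open diamonds: CB1KO median; dotted line: WT median of all genes). Row labels give the members tested and how many had all 4 WT_HFHS arrays above (up) or below (down) all 4 WT_SD arrays, with slow-twitch genes at 0.88 and fast-twitch genes at -0.32 as the ends in WT.

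Genes of fatty acid oxidation lay higher in HFHS muscle. Of 30 beta-oxidation genes, 27 had a positive difference, with a median of 0.26 against -0.06 over all genes, and none passed the test. Pex11a, a peroxisome division factor, measured 3.58, 3.87, 3.62 and 3.55 on SD and 4.16, 4.31, 4.35 and 3.95 on HFHS. Decr1, the mitochondrial dienoyl-CoA reductase needed for unsaturated fatty acids, measured 5.84, 6.18, 5.78 and 5.75 on SD and 6.20, 6.5, 6.78 and 6.20 on HFHS. These 2 of 30 genes (beside 2.04% of all genes) had groups that did not overlap, Decr1 not so on the deposited z-scores, with differences of 0.54 ± 0.17 (adjusted p = 0.648) and 0.53 ± 0.20 (adjusted p = 0.719).

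Acaa2, the thiolase of the last step, differed by 0.77 ± 0.32, and Acadvl, the very-long-chain dehydrogenase, by 0.52 ± 0.23, with overlapping groups. Cpt1b, the muscle carnitine palmitoyltransferase, differed by 0.21 ± 0.20 and Slc25a20, the carnitine carrier, by 0.45 ± 0.24. Plin5, which coats lipid droplets of oxidative tissue, measured 3.99, 5.14, 4.74 and 4.06 on SD and 4.99, 5.52, 5.72 and 4.26 on HFHS. WT_HFHS replicate 4 fell within the SD range, and the difference was 0.64 ± 0.42 (adjusted p = 0.938). The beta-oxidation median was 0.16 without WT_HFHS replicate 3, 0.13 with the share of spots well above background as a covariate and 0.14 on the deposited z-scores.

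Of 27 genes of mitochondrial biogenesis and dynamics 23 were positive (median 0.15). Ppargc1a, the coactivator that drives mitochondrial biogenesis, measured 1.98, 2.25, 2.06 and 1.96 on SD and 2.56, 2.96, 2.56 and 2.36 on HFHS. Its groups did not overlap under any of the 4 scalings examined, and the difference was 0.55 ± 0.17 (1.46-fold, adjusted p = 0.648). Ppara, the fatty acid-sensing nuclear receptor, differed by 0.91 ± 0.42, with another probe at -0.18 ± 0.25, and Esrra, an oxidative transcription factor, by 0.31 ± 0.17, with overlapping groups. Oxidative phosphorylation genes had a median of 0.07 (37 of 46 positive) and tricarboxylic acid cycle genes one of 0.12 (16 of 22), but on the deposited z-scores the medians turned to -0.17 and -0.12, so the direction of these lists depends on the scaling. No oxidative phosphorylation gene lay wholly higher as analysed or on the z-scores, while 7 of 46 did after quantile normalization and 11 after normexp with quantile normalization, beside 2.66% and 2.47% of all genes.

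The same oxidative lists lay lower in HFHS than in SD in CB1KO muscle, measured in other mice on the same slides. There the median was -0.25 for beta-oxidation (29 of 30 genes negative), -0.22 for oxidative phosphorylation (45 of 46) and -0.18 for the tricarboxylic acid cycle (20 of 22). CB1KO list medians, here and below, come from the 75th percentile scaling alone. Their dependence on scaling and on single arrays was not examined. The log2 signal had an unusual spread on CB1KO_SD replicate 2 and CB1KO_HFHS replicate 1 (standard deviation 2.89 and 3.97). For Plin5 the difference was -0.88 ± 0.42 in CB1KO and the interaction was -1.53 ± 0.60, and for Decr1 these values were -0.31 ± 0.20 and -0.84 ± 0.28. No gene passed for the interaction (0.0% called, smallest adjusted p 0.357, 1052 at an unadjusted p under 0.05), so a difference between the genotypes is not shown for any member.

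Slow-twitch fibre genes had the largest median of the 40 lists, 0.88, with 18 of 19 members positive, yet none separated the diets. Their mean level was 0.26, 1.90, 3.24 and 2.97 on the SD arrays and 3.14, 3.46, 4.75 and 0.69 on the HFHS arrays. WT_SD replicate 1 and WT_HFHS replicate 4 were lowest and WT_HFHS replicate 3 highest, and the groups overlapped. Without WT_SD replicate 1 the median was 0.15 and without WT_HFHS replicate 3 it was 0.27, and it was 1.61 without WT_HFHS replicate 4. With the share of spots well above background as a covariate it turned to -0.46, and with array weights it was 0.26.

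Myl3, the slow myosin light chain shared with heart, measured -2.61, 3.21, 6.89 and 5.86 on SD and 7.40, 7.12, 9.0 and 2.53 on HFHS. It ran from far below to far above the 75th percentile within SD alone, and the difference was 3.17 ± 2.30 (adjusted p = 0.961). Myh7, the slow myosin heavy chain, chosen after its values were seen, measured -1.91, -1.10, 4.70 and 4.15 on SD and 4.45, 3.96, 6.66 and -1.22 on HFHS. Its low arrays were WT_SD replicates 1 and 2 and WT_HFHS replicate 4. Casq2 and Atp2a2, calcium store proteins of slow and cardiac muscle, differed by 1.07 ± 0.59 and 0.98 ± 0.71. In CB1KO the slow-twitch median was -0.92 and the Myl3 difference -3.64 ± 2.30. The beta-oxidation mean was likewise lowest on WT_SD replicate 1 (4.12), highest on WT_HFHS replicate 3 (5.0) and, among the HFHS arrays, lowest on replicate 4 (4.37). Whether the proportion of slow fibres in the tissue taken played a part was not tested. In bulk tissue, fewer fibres of a kind and less RNA per fibre cannot be told apart.

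Fast-twitch fibre genes lay lower in HFHS, with 16 of 19 negative and a median of -0.32. In 8 of 19 (Myh4, Tnnc2, Actn3, Atp2a1, Mybpc2, Myoz1, Pgam2 and Eya1) the HFHS arrays lay wholly below the SD arrays, where 3.36% of all genes did. Eya1, a transcriptional cofactor that promotes the fast programme, measured 5.49, 5.50, 5.30 and 5.45 on SD and 4.71, 4.79, 4.99 and 5.05 on HFHS. The difference was -0.55 ± 0.16 (1.46-fold lower, adjusted p = 0.640). Myh4, the fastest myosin heavy chain, measured 9.45, 9.60, 9.39 and 9.45 on SD and 8.74, 9.29, 9.34 and 9.12 on HFHS, a difference of -0.35 ± 0.23. Tnnc2, Actn3, Atp2a1 and Pgam2, named after their values were seen, differed by -0.41 to -0.23.

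The size of the fast-twitch difference depended on the scaling. The median was -0.03 after quantile normalization, -0.04 after normexp with quantile normalization and -0.66 on the deposited z-scores. The number lying wholly lower went from 8 to 2, 2 and 3, beside 3.2%, 3.04% and 2.62% of all genes. Eya1 was the gene that lay wholly lower under each scaling, and Casq1, the fast calsequestrin, did so under these 3 but not in the main scaling (difference -0.55 ± 0.19, adjusted p = 0.686). In the main scaling, the 75th percentile subtracted from each array ran from 8.98 to 9.27 (log2) on WT_SD and from 9.25 to 9.83 on WT_HFHS. The part of this shift in the result for this list and for others was not tested. Myh2, the myosin of fast oxidative fibres, named after its values were seen, measured 4.16, 8.18, 7.95 and 7.35 on SD and 7.78, 8.41, 9.0 and 6.29 on HFHS. Unlike most of its list it was not lower on average (0.96 ± 1.49), and its low arrays, SD replicate 1 and HFHS replicate 4, were those lowest for the slow-twitch mean.

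**Figure D3:**
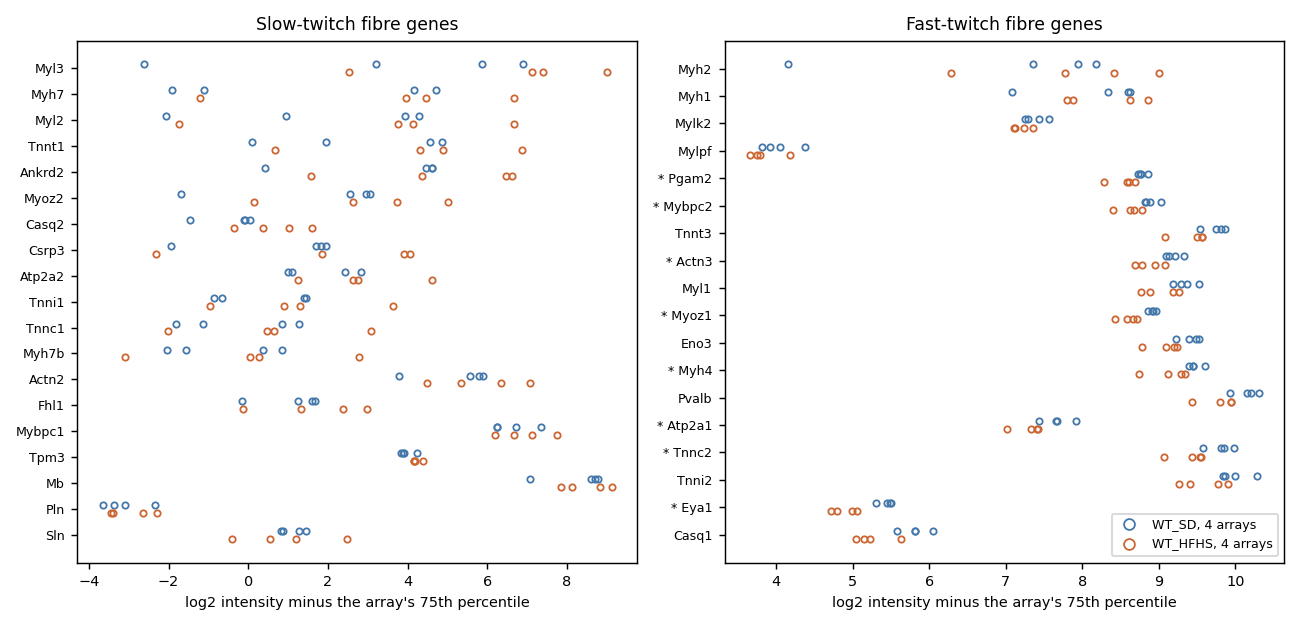
Levels of slow-twitch and fast-twitch fibre genes on each WT array (x axis: log2 intensity minus the array's 75th percentile; circles: arrays; asterisk: groups do not overlap). Many slow-twitch genes spread widely within each diet, as Myl3 does from -2.61 to 6.89 on SD, but Tpm3 does not. Most fast-twitch genes lie close together within a diet, Myh2 excepted, which runs from 4.16 to 8.18 on SD.

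Of 37 genes of glucose uptake, glycolysis and glycogen use, 23 were negative (median -0.12). Pygm, the glycogen phosphorylase of muscle, measured 9.15, 9.05, 8.89 and 9.23 on SD and 8.34, 8.82, 8.75 and 8.79 on HFHS. Pfkm, the muscle phosphofructokinase, measured 8.96, 9.08, 8.99 and 9.21 on SD and 8.53, 8.84, 8.90 and 8.79 on HFHS. Along with Pgam2, which is also in the fast-twitch list, these lay wholly lower, by -0.41 ± 0.15 and -0.30 ± 0.12 (adjusted p = 0.713 and 0.779), 3 of 37 beside 3.36% of all genes, but none of the 3 did so after quantile normalization or on the z-scores, and the median was 0.00 after quantile normalization. Pdp1, the phosphatase that activates pyruvate dehydrogenase, differed by 0.50 ± 0.19.

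Insulin and growth factor signalling genes were split evenly, 18 positive and 19 negative. Of these 37, 1 lay wholly higher and 2 wholly lower, beside 2.04% and 3.36% of all genes. Eif4ebp1, the translation repressor downstream of mTORC1, measured 5.89, 6.26, 6.38 and 6.04 on SD and 5.54, 5.73, 5.72 and 5.54 on HFHS. It lay wholly lower, by -0.51 ± 0.16 (adjusted p = 0.648), also under the other 3 scalings. Tbc1d1, a Rab regulator of glucose transporter traffic, differed by -0.59 ± 0.23, Igfbp5, an insulin-like growth factor binding protein, by 0.43 ± 0.18 and Sesn2, a stress-induced inhibitor of mTORC1, by -0.21 ± 0.09. Sesn2, also in the stress response list, lay wholly lower, except on the z-scores.

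Genes of lipid synthesis showed no common direction, with 15 of 30 positive. Srebf1, the lipogenic transcription factor, measured -0.61, -0.73, -0.44 and -0.78 on SD and -1.12, -1.03, -1.12 and -0.87 on HFHS. It was the list's only gene wholly lower (-0.40 ± 0.17, adjusted p = 0.779), 1 of 30 beside 3.36% of all genes, though under none of the other scalings. Elovl5, a fatty acid elongase, differed by 0.41 ± 0.18 and Acss2, which makes acetyl-CoA from acetate, by 0.57 ± 0.26. Of 26 cholesterol genes 15 were negative (median -0.08). Fdps, the farnesyl diphosphate synthase, lay wholly lower by -0.17 ± 0.13, 1 of 26 beside 3.36% of all genes, but not after normexp with quantile normalization. Ucp3, an uncoupling protein and PPAR target, differed by -0.22 ± 0.17, with a second probe at 0.36 ± 0.33, and Mgll, the monoglyceride lipase, by 0.42 ± 0.21.

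Interferon response genes lay higher in HFHS muscle. Type I interferons act through a complex that includes STAT2 and IRF9 on promoters carrying an interferon-stimulated response element. Of 29 genes, 25 were positive (median 0.29) and 7 lay wholly higher, beside 2.04% of all genes, and none passed the test. In CB1KO muscle 24 of 29 were positive, with a median of 0.50. The 7 were Ifit1, Irf9, Stat2, Rsad2, Gbp3, Rtp4 and Xaf1, and all but Rsad2 and Xaf1 are named after their values were seen. After quantile normalization 8 lay wholly higher, after normexp with quantile normalization 6 and on the z-scores 5, beside 2.66%, 2.47% and 1.87% of all genes.

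The upstream sequence of 5 of these genes shows where such elements lie. They were chosen because they hold a match and, except for Bst2, lay wholly higher. Sequences are from RefSeq on build GRCm38.p6, printed 5′ to 3′ on the gene's strand, with matches to GAAANNGAAA on either strand in capitals, so that a match on the opposite strand reads as TTTC, any 2 bases and TTTC. The motif was chosen after the values were seen.
Ifit1, chr19:34640765-34640864, + strand: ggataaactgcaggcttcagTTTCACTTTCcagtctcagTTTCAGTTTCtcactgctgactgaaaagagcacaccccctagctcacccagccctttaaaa
Rsad2, chr12:26456493-26456592, - strand: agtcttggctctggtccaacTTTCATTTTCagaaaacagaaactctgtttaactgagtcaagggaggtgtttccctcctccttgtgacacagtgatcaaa
Stat2, chr10:128270256-128270355, + strand: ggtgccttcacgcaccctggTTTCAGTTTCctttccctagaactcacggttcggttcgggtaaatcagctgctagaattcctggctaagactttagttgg
Gbp3, chr3:142559944-142560043, + strand: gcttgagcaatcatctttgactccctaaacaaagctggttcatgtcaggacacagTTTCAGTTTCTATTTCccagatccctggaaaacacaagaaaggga
Bst2, chr8:71537523-71537622, - strand: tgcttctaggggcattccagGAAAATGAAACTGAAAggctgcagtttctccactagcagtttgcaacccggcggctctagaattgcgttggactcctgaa

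These windows end between 143 and 1 bases before the annotated start. Ifit1, Gbp3 and Bst2 held 2 matches each, overlapping ones in Gbp3 and Bst2. Of the interferon list, 23 genes had an entry in the promoter table, and 12 of their 28 promoters (42.9%) held a match in the table's window around the start, mostly upstream of it, against 3.44% of all 32851 promoters. Irf9 and Xaf1 held none in this window. A match is a description of the letters and no evidence of binding.

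Rsad2, the antiviral enzyme viperin, measured -1.13, -0.54, -0.41 and -0.99 on SD and -0.30, -0.20, 0.46 and 0.10 on HFHS (difference 0.78 ± 0.26, 1.72-fold, adjusted p = 0.656). Stat2, the signalling subunit itself, measured 0.21, 0.40, 0.57 and 0.24 on SD and 0.93, 0.77, 0.80 and 0.65 on HFHS (0.43 ± 0.27, adjusted p = 0.931). Gbp3, an interferon-induced GTPase, measured -0.61, -0.10, 0.11 and -0.32 on SD and 0.63, 0.35, 0.45 and 0.23 on HFHS (0.65 ± 0.42, adjusted p = 0.938). In each the lowest HFHS array stood only narrowly above the highest SD array, and the SE pools the spread of all 4 groups.

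Bst2, the virus-tethering protein tetherin, measured -1.36, -0.76, -0.72 and -0.86 on SD and 0.69, 0.73, 1.42 and -0.81 on HFHS. It was higher on HFHS replicates 1 to 3 and within the SD range on replicate 4, with a difference of 1.43 ± 0.42 (2.70-fold, adjusted p = 0.640) and 1.37 ± 0.42 in CB1KO. Xaf1, a pro-apoptotic interferon target, differed by 0.45 ± 0.20 and Usp18, which removes ISG15 from proteins, by 0.42 ± 0.26. Not all members followed: Isg15 was at 0.08 ± 0.27, Ifih1 at 0.02 ± 0.19 and Cxcl10 at -0.01 ± 0.55, all named after their values were seen. With the share of spots well above background as a covariate, the list's median was 0.06; that share itself ran higher on HFHS, and its part in the result was not tested.

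**Figure D4:**
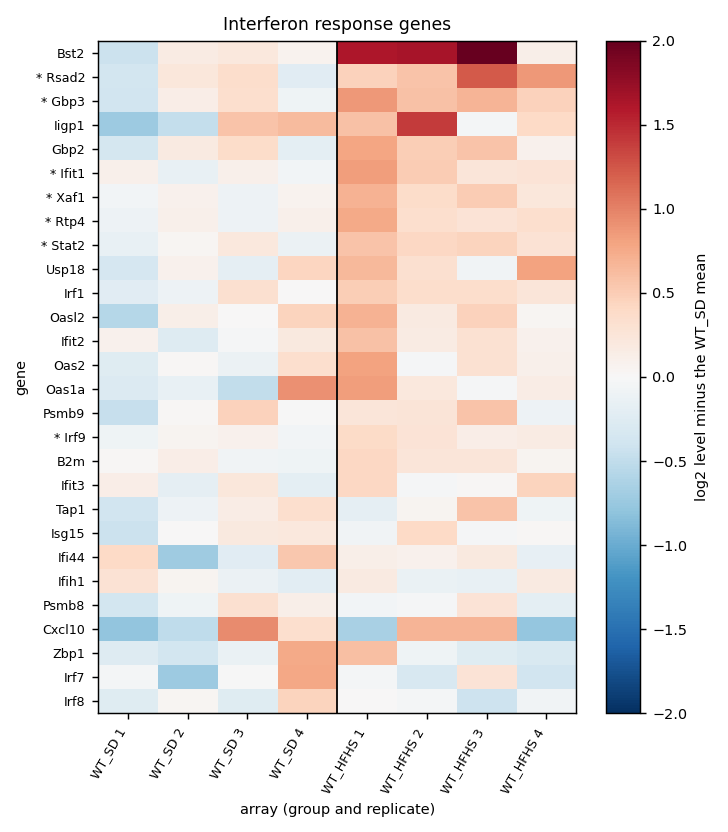
Levels of interferon response genes on each WT array, as colour relative to the gene's WT_SD mean (log2 units, scale cut at -2 and 2; genes ordered by difference; asterisk: all 4 HFHS arrays above all 4 SD arrays). The mean over the list runs from -0.67 to -0.28 on SD and from -0.35 to 0.00 on HFHS, and Bst2 is at its SD level on WT_HFHS replicate 4.

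Genes of antigen presentation and inflammation had medians near 0. MHC class II and antigen presentation genes had a median of 0.09 in WT, which was -0.03 without WT_SD replicate 1 and -0.01 without WT_HFHS replicate 1, and 0.65 in CB1KO, and B2m, the light chain of MHC class I, differed by 0.24 ± 0.19. Inflammatory cytokines and chemokines were split 14 to 14. Cxcl12, a chemokine that retains leukocytes and progenitors, measured 4.11, 4.38, 4.39 and 4.58 on SD and 4.82, 5.04, 5.15 and 4.68 on HFHS. It lay wholly higher, by 0.56 ± 0.15 (1.48-fold, adjusted p = 0.626), with a second probe at 0.59 ± 0.21, but its groups overlapped under each of the other 3 scalings. Nfkbia, the inhibitor of NF-kappaB, named after its values were seen, lay wholly lower under all 4 scalings, by -0.28 ± 0.28 (adjusted p = 0.994). Tnf, Il10, Ccl4, Cxcl2 and Cxcl5 either were not well above background on any WT array or did not pass the filter on dim probes.

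Most markers in the 2 vascular lists lay higher in HFHS. Tmem100, described above and in neither list, lay wholly lower (-1.64 ± 0.29). Of 15 smooth muscle and pericyte markers, 13 were positive (median 0.43) and 4 (Pdgfrb, Rgs5, Smtn and Kcnj8) lay wholly higher, beside 2.04% of all genes. Smtn, a contractile protein of smooth muscle, measured 3.98, 4.39, 4.22 and 4.17 on SD and 4.66, 4.69, 4.79 and 4.62 on HFHS (difference 0.50 ± 0.16, adjusted p = 0.648). Rgs5, a G-protein regulator that marks pericytes, measured 3.36, 3.58, 3.51 and 3.59 on SD and 3.86, 4.16, 3.94 and 3.80 on HFHS (0.43 ± 0.15, adjusted p = 0.708). In these genes the HFHS arrays stood above the SD arrays without exception.

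Kcnj8, a potassium channel subunit of mural cells, differed by 0.51 ± 0.18, and Pdgfrb, the pericyte receptor for platelet-derived growth factor, named after its values were seen, by 0.32 ± 0.17. Notch3, a receptor of mural cells, differed by 0.47 ± 0.18 with overlapping groups. The mean of this list was 1.68, 2.06, 1.96 and 1.58 on SD and 1.94, 2.36, 2.35 and 2.0 on HFHS. After normexp with quantile normalization or on the z-scores 3 of 15 lay wholly higher, beside 2.47% and 1.87% of all genes, and Smtn did so under all 4 scalings. With the share of spots well above background as a covariate the median was 0.26. In CB1KO it was -0.12.

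Of 18 endothelial markers, 16 were positive (median 0.30). Tek, the angiopoietin receptor, measured -0.99, -0.78, -0.53 and -0.86 on SD and -0.48, -0.36, 0.02 and -0.50 on HFHS, wholly higher by 0.46 ± 0.16 (adjusted p = 0.686). Flt1, a receptor for vascular endothelial growth factor, differed by 0.46 ± 0.21, Egfl7, a secreted endothelial factor, by 0.38 ± 0.17 and Erg, an endothelial transcription factor, by 0.49 ± 0.19. In CB1KO the endothelial median was -0.06. The log2 of the summed endothelial intensities ran from 6.53 to 6.94 on SD and from 6.85 to 7.16 on HFHS, and that of the smooth muscle and pericyte markers from 7.32 to 7.62 and from 7.52 to 7.95, so both sums overlapped between the diets.

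**Figure D5:**
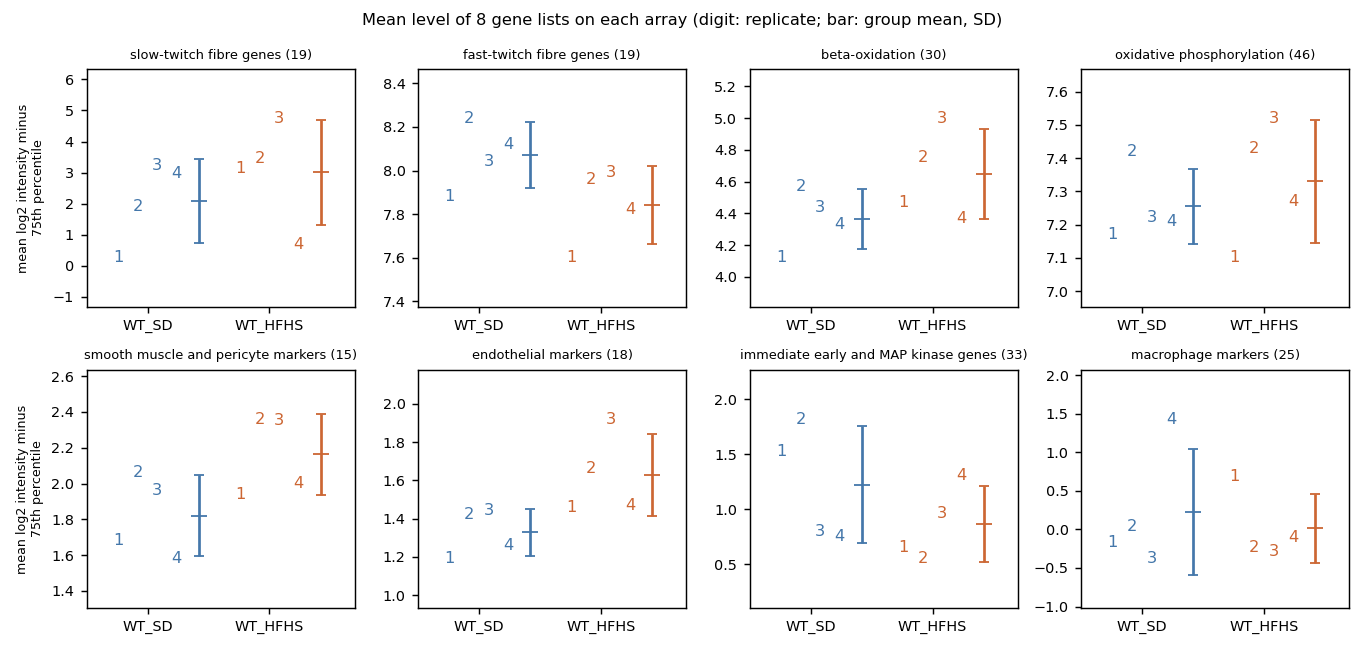
Mean level of 8 gene lists on each WT array (y axis: mean log2 intensity minus the array's 75th percentile, with its own range in each panel; digits: replicates; bars: group mean and SD). Smooth muscle and pericyte markers run from 1.58 to 2.06 on SD and from 1.94 to 2.36 on HFHS, and slow-twitch genes from 0.26 to 3.24 and from 0.69 to 4.75.

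Collagen and matrix genes had a median of 0.21 (28 of 35 positive) and fibroblast markers one of 0.23 (14 of 16), and without WT_HFHS replicate 1 each median was 0.09. Pi16, which marks a perivascular fibroblast population, measured 1.72, 2.52, 1.94 and 1.88 on SD and 3.82, 2.69, 2.55 and 2.74 on HFHS. It lay wholly higher (0.94 ± 0.39, adjusted p = 0.779), with replicate 1 well above the others, but not on the z-scores. Col5a1, a fibrillar collagen chain, differed by 0.46 ± 0.30. In CB1KO these medians were 0.41 and 0.38.

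Markers of fat and immune cells varied with single samples. White adipocyte markers had a median of 0.23, which was -0.17 without WT_SD replicate 4 and 0.85 without WT_SD replicate 3. Adipoq, the adipocyte hormone adiponectin, named after its values were seen, measured 3.91, 3.57, 4.55 and -0.86 on SD and 4.22, 3.23, 3.04 and 3.27 on HFHS. WT_SD replicate 4 lay far below every other array. Ucp1, the brown fat uncoupling protein, measured -2.73, -4.02, 3.10 and -2.46 on SD and -4.16, 0.75, -4.73 and -2.93 on HFHS. It was high on WT_SD replicate 3 and WT_HFHS replicate 2, which also carried the largest weights in the weighted fit. The log2 of the summed white adipocyte intensities ran from 8.29 to 9.45 on SD and from 8.54 to 8.82 on HFHS.

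Macrophage markers had a median of -0.22 (21 of 25 negative) that was 0.17 without WT_SD replicate 4, an array on which Gpnmb, a lysosomal macrophage gene, measured 1.78 against -0.37, 0.00 and -0.72 on SD replicates 1 to 3. It was -0.44 without WT_HFHS replicate 1, -0.41 without WT_SD replicate 3 and 0.06 with array weights. Their summed log2 level ran from 6.38 to 7.40 on SD and from 6.57 to 6.99 on HFHS. In CB1KO all 25 were positive, with a median of 0.58. Neutrophil markers had a median of -0.12 and erythroid markers one of -0.11, with Slc4a1, the anion exchanger of red cells, wholly lower by -0.79 ± 0.31 in the main scaling alone. T and B lymphocyte markers were mixed, 9 positive and 10 negative (median -0.03). Of these 19, 3 lay wholly higher, Ltb and Ms4a1 among them, and 1 wholly lower, beside 2.04% and 3.36% of all genes. Cd27, a costimulatory receptor, lay wholly lower by -0.84 ± 0.39, in the main scaling alone, with a second probe at -1.03 ± 0.34, and Zap70, a kinase of the T cell receptor, differed by -0.56 ± 0.29 with overlapping groups. Cd8b1, Gzmb and Cd79a were likewise not well above background or not tested. Ltb, the cytokine lymphotoxin beta, and Ms4a1, the B cell antigen CD20, were not well above background on any SD array and were at least 1.58-fold and 1.29-fold higher on HFHS, where 4 and 3 arrays had them well above it. The part of these cells in the other results was not tested.

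Immediate early and MAP kinase genes, which respond within minutes to stress and contraction, had a median of -0.31 (28 of 33 negative), and none separated the groups. Their mean was 1.53, 1.82, 0.80 and 0.75 on SD and 0.65, 0.55, 0.96 and 1.31 on HFHS, high in WT_SD replicates 1 and 2, and without WT_SD replicate 2 the median was -0.11, without WT_HFHS replicate 1 it was -0.19 and without WT_SD replicate 3 it was -0.47. Dusp10, a phosphatase of p38 and JNK, differed by -0.74 ± 0.27, and Ccn1, a matrix protein of the early response, by -0.72 ± 0.40. In CB1KO the median was -0.84.

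Stress, atrophy and regeneration genes had medians near 0. Of 34 genes of the unfolded protein and integrated stress response, 1 lay wholly higher and 3 wholly lower, beside 2.04% and 3.36% of all genes. Chac1, an enzyme that degrades glutathione, measured 7.39, 7.42, 7.90 and 7.85 on SD and 6.91, 7.04, 6.97 and 7.33 on HFHS. It lay wholly lower by -0.58 ± 0.22 (adjusted p = 0.719), but under none of the other scalings. Pdia3, an endoplasmic reticulum disulphide isomerase, lay wholly higher by 0.35 ± 0.14, and Dnajb9, a chaperone of that compartment named after its values were seen, wholly lower by -0.17 ± 0.14, both under all 4 scalings. Cebpd, a transcription factor induced by glucocorticoids and cytokines, measured 6.09, 6.03, 5.31 and 4.19 on SD and 4.00, 3.55, 3.63 and 4.63 on HFHS. Its groups overlapped through SD replicate 4 and HFHS replicate 4, and the difference was -1.45 ± 0.63 (adjusted p = 0.794).

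Mymx, the myoblast fusion protein myomixer, measured -2.57, -3.40, -3.82 and 0.86 on SD and -4.26, -4.35, -4.09 and -4.06 on HFHS. It lay wholly lower, though not after either quantile-based normalization, and the mean of SD rests on replicate 4, and the difference was -1.96 ± 0.92 (adjusted p = 0.827). Hdac4, a repressor that responds to denervation, lay wholly higher by 0.45 ± 0.15, except after normexp with quantile normalization. Fkbp1a, which stabilises the ryanodine receptor, lay wholly lower by -0.61 ± 0.20 at its brightest probe, while a second probe measured 0.00, and its groups overlapped on the z-scores. Clock genes had a median of 0.02. Bhlhe41, a clock repressor, lay wholly lower by -0.63 ± 0.33, except on the z-scores, 1 of 22 beside 3.36% of all genes.

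Heat shock chaperones had a median of 0.04. Hspa1a, the inducible HSP70, measured -1.15, -1.05, -1.20 and -1.33 on SD and -1.43, -0.04, -0.04 and -1.40 on HFHS, with HFHS replicates 2 and 3 high. Its difference was 0.45 ± 0.39 in WT (adjusted p = 0.994) and -3.18 ± 0.39 in CB1KO (adjusted p = 0.0200), and the interaction of -3.64 ± 0.55 had the smallest adjusted p, 0.357. It was 1 of 8 genes called in CB1KO (0.0276% of those tested, 4 higher and 4 lower).

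The remaining lists lay close to all genes. Fatty acid uptake genes had a median of 0.09, with Acsl1, an acyl-CoA synthetase, at 0.37 ± 0.27, against -0.17 in CB1KO. PPAR targets had a median of 0.12, against -0.26 in CB1KO. It was -0.07 without WT_SD replicate 1, -0.03 without WT_SD replicate 4 or without WT_HFHS replicate 3, 0.01 without WT_HFHS replicate 2, -0.14 with array weights and -0.22 with the share of spots well above background as a covariate, so it has no settled direction. Endocannabinoid genes had a median of -0.08, and Plcb1, a phospholipase C that supplies diacylglycerol, a precursor of endocannabinoids, measured -2.22, -2.24, -2.33 and -2.54 on SD and -1.86, -1.88, -1.74 and -1.97 on HFHS. It was the list's only gene with separated groups (0.47 ± 0.17, adjusted p = 0.719), 1 of 15 beside 2.04% of all genes wholly higher. Its second probe measured -0.31 ± 0.56. Myokine genes had a median of 0.10, atrophy and autophagy genes one of -0.04, with Cblb, a muscle ubiquitin ligase, wholly lower by -0.21 ± 0.14 but a second probe at 0.41 ± 0.40, and cell cycle genes one of -0.10, with Ccne1, cyclin E1, wholly lower by -0.36 ± 0.15. Oxidative stress genes had a median of -0.02, with Gpx1, the main glutathione peroxidase, wholly lower by -0.25 ± 0.13 against 0.25 in CB1KO. Cblb was 1 of 37, Ccne1 1 of 22 and Gpx1 1 of 28 list members tested, beside 3.36% of all genes wholly lower. Under other scalings Cblb and Ccne1 kept separated groups only after quantile normalization, and Gpx1 under none.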

How the data were processed

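Total RNA from skeletal muscle was labelled with Cy3 and hybridised to Agilent arrays. Spot intensities, including a background-corrected processed intensity, come from Feature Extraction 11.5.1.1, per the file headers. A further deposited table gives 1 score for each spot, equal to the z-score of log2 processed intensity to within 0.005. From these, log2 processed intensity minus the array's 75th percentile was computed, outlier spots were set to missing, and repeated spots were averaged. Of 55681 probes, 28020 took a symbol from the RefSeq table. Probes were kept where 4 or more of the 16 arrays had them well above background, with the brightest per gene, leaving 28972 genes. limma 3.58.1 in R 4.3.3 fitted 4 group means to all 16 arrays (lmFit, eBayes, two-sided, Benjamini-Hochberg over all genes). The fit was tested on simulated data.

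A gene not well above background in a group has a bound only: each dim value was replaced by the lowest well-measured intensity of its array where that was higher, and the fold is given as "at least". The number of arrays limits the precision. The 4 arrays of a group are called biological replicates in the series design, which does not say whether each is a separate mouse. Genes named are Cnr1, Il6 and Mstn, the 10 higher and 10 lower named genes with the smallest p, since none passed, up to 4 genes per list by p and the 5 with the smallest interaction p; others are said to be chosen after their values were seen. Members and gene lists were chosen with earlier results of these data known. Of 966 list entries 956 were on the array, and a few members are counted but not reported here by name. Alternatives were quantile normalization, normexp (offset 50) with quantile normalization, the deposited z-scores, other filters and probe rules, trend and robust variances, array weights, the 8 WT arrays alone, covariates for signal spread and detection, a replicate block and single arrays left out.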

Additional observations from a re-analysis of the deposited data

Results flagged for a closer look

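Within groups of 4 arrays, the gap of an extreme array to its nearest neighbour was compared with the group's range by Dixon's 95% critical value, in 290 groups of values, of which 12 passed, where chance passes about 1 in 20. On HFHS these were replicate 4 for the share of spots well above background (62.4%, the others 74.1% to 75%) and for the mean of lipolysis and lipid droplet genes (1.71, the others 2.24 to 2.33). HFHS replicate 1 stood apart for Pygm (8.34, the others 8.75 to 8.82), Tpm3 (4.39), Rtp4 (1.51) and Pi16 (3.82), HFHS replicate 2 for Ankrd1 (2.30, the others 0.67 to 0.75) and HFHS replicate 3 for Hdac4 (2.47). On SD they were replicate 1 for Casq2 (-1.46, the others -0.12 to 0.03) and Tbc1d16 (1.42), replicate 2 for Tpm3 (4.24) and replicate 3 for the mean of brown adipocyte markers (2.86, the others 1.18 to 1.38). No interaction between genotype and diet passed.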

How the results depend on the processing

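With few exceptions no gene passed between HFHS and SD in WT muscle in any alternative. The exceptions were array weights (1618 genes) and the fit without both arrays of unusual spread (1, Zfp709). Among fits with single arrays left out the count was 0 to 1, with 1 (Zfp709) without CB1KO_SD replicate 2. The arrays of unusual spread were CB1KO_SD replicate 2 and CB1KO_HFHS replicate 1, which enter the WT comparison only through the shared variance. The replicate numbers do not pair the samples (correlations of deviations -0.062, -0.004, 0.021 and -0.149); with a replicate block 0 genes passed in WT and 0 in CB1KO. Called genes in CB1KO, 8 in the fit reported, numbered 2 under quantile normalization and under normexp with quantile normalization, 3 on z-scores and with mean probes, 4 without the filter, 14 with detection on all 16 arrays, 1 with trend and robust variances, 77 with array weights, 23 without both unusual arrays, 15 with signal spread and 0 with the share well above background as covariates, and 0 to 28 with single arrays left out. For the interaction the counts were 1 under normexp, 50 with array weights, 10 without both unusual arrays and 0 to 11 with single arrays left out. For single genes, alternatives were counted for only part of those named above, and for a few others such as Gsdma, Oc90 and Slc38a11. Cpt1b, Myh2, Mymx, Nfkbia, Ucp1 and Gpx1 were among the named genes left out. Of the 3016 alternatives counted, 2948 kept direction and call, 55 gained a call (53 under array weights) and 13 turned sign. Il6 turned to 0.26 (quantile), 0.078 (normexp), 0.25 (z-scores) and 0.76 (share covariate). Il6 also turned to 0.16 without WT_SD replicate 2 and to 0.14 without WT_HFHS replicate 3 (lowest -0.25, without WT_HFHS replicate 4). With the share covariate Mstn turned to 0.057, Atp2a2 to -0.31 and Myh7 to -1.74. Pgam2 turned to 0.030 (normexp). With array weights Mt2 turned to 0.19 and Adipoq to -0.50. Adipoq also turned to -0.57 without WT_SD replicate 4 (highest 1.23, without WT_SD replicate 3). The share covariate and the omission of arrays outside a comparison were chosen after seeing the data. The causes were not tested. Of 1200 list medians 24 moved beyond the spread between replicates.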
